A study of Mus musculus with 9 samples.

Results

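The enzymes that write, copy and remove DNA methylation, with the enzymes that supply their cofactor, were examined in myeloid progenitors that express the NUP98-HOXA10hd fusion (NA). The 9 genes were chosen by name for their function: Dnmt1, Uhrf1, Dnmt3a, Dnmt3b, Tet1, Tet2, Tet3, Idh1 and Idh2. They are 9 of the 37980 genes measured, and all 9 were among the 11987 genes with values high enough to test.

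DNA methyltransferases add a methyl group to cytosine, mostly at CpG sites. Dnmt3a and Dnmt3b set new marks, while Dnmt1 copies existing marks to the new strand after replication, guided there by Uhrf1. Tet enzymes oxidise methylcytosine in a reaction that needs 2-oxoglutarate, which Idh1 (in the cytosol) and Idh2 (in mitochondria) produce, and loss or mutation of DNMT3A, TET2, IDH1 or IDH2 is a known feature of clonal haematopoiesis and myeloid leukaemia.

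RNA was sequenced from 4 samples of NA myeloid progenitors (NA MPs) and 5 samples of wild-type myeloid progenitors (WT MPs), all of strain C57BL/6. Each sample held 100000 sorted bone marrow cells that lacked lineage markers and Sca1 and carried c-kit, and the cells came from irradiated mice that had been transplanted with NA or WT multipotent progenitors (MPPs). The gate for NA MPs was Tdtomato+, and the gate for WT MPs, from control recipients, was CD45.2+. The labels place the sort at 3 months after transplantation, while the study's methods give a later month. NA mice carried 1 allele of the fusion behind a stop cassette (NA LSL/+) together with Vav-Cre, which acts in blood cells, and donor MPPs came from these mice. Recipients were adult C57BL/6 mice that also received helper bone marrow cells, and they were CD45.2+ like the WT MP gate. Elsewhere the study tracks cells from WT donors by CD45.1, a marker that a gate on CD45.2 alone does not select for, and which marker the donors of these WT MPs carried was not stated. Whether each sample came from a separate mouse was not stated, and p-values therefore measure the spread between these samples. In bulk RNA, fewer cells of a type and less RNA per cell cannot be told apart.

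Values are expected counts per gene that had been scaled between samples before deposition, called scaled counts below. Column totals ran from 6602851 to 6734284. The low values in each column were whole multiples of a step, which gave 5557701 to 8106138 reads in NA MPs and 6141682 to 7751471 reads in WT MPs. At this depth 3 reads corresponded to a scaled count between 2.48 and 3.60, a floor for counting error only. The 9 enzymes had between 170 reads (Tet1 in NA MP replicate 1) and 5038 reads (Dnmt1 in WT MP replicate 2) in a sample.

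The labels were checked on genes outside the 9 that were picked after their values were seen. Hoxa10 had scaled counts of 129 ± 17.7 in NA MPs (SD, n = 4) and 8.05 ± 2.57 in WT MPs (SD, n = 5). Nup98 had 956 ± 81.8 and 599 ± 29.9, and for both genes the lowest NA MP value exceeded the highest WT MP value. Gene-level values do not separate the fusion from the endogenous genes. Kit, the gene of the sorted surface receptor, stood at 2964 in NA MPs and 3039 in WT MPs, and Mpo, the most abundant gene of the myeloid progenitor list per length, at 107700 and 103900. Ly6a, which encodes Sca1 and should be removed by the gate, lay between 12.2 and 23.1 in the 9 samples.

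On GRCm38, Dnmt1 (ENSMUSG00000004099) lies on the minus strand at chr9:20907209-20959888 and Uhrf1 (ENSMUSG00000001228) on the plus strand at chr17:56303321-56323486. These 2 genes act together and had the highest levels of the methylation machinery, so their promoters are shown. The RefSeq promoter windows (GRCm38.p6, 250 bases before to 50 after a start site, 9 of 9 genes matched) were searched on both strands for the E2F-type motifs TTTCGCGC and TTTGGCGC. Of the 9 genes, Dnmt1 and Uhrf1 held a match and the other 7 did not. Several genes have more than 1 window, and the matches lay in 1 of 3 Dnmt1 windows (chr9:20952574-20952873) and in 1 of 2 Uhrf1 windows (chr17:56304063-56304362). Of all 27025 genes with a window, 251 (0.929%) held a match, and of all 32851 windows 267 (0.813%). The stretches below are 30 bases each, read 5′ to 3′ on the strand of the gene, and the capitals mark the motif, which in Dnmt1 reads on the opposite strand.
Dnmt1 (chr9:20952824-20952853, minus strand): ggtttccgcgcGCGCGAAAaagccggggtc
Uhrf1 (chr17:56304117-56304146, plus strand): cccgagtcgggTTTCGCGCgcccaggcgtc
The Dnmt1 stretch ends 200 bases before the start site of that window, which lies inside the gene, and falls within an annotated Dnmt1 exon. The Uhrf1 stretch ends 166 bases before the start site of its window, also inside the gene, and overlaps no annotated Uhrf1 exon. The same Dnmt1 window held a second match, TTTGGCGC, that begins 33 bases past that start site. A match describes the letters in the window and is no evidence of binding.

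The levels of the 9 enzymes spanned a wide range. Levels were compared between genes as scaled counts per kilobase of merged exons in a column total of 1000000, here called the level per length. In WT MPs (n = 5) Idh2 had the highest level per length (113 ± 1.93, SD), followed by Dnmt1 (88.4 ± 2.25), Uhrf1 (81.5 ± 3.03) and Idh1 (37.7 ± 1.15). Far lower levels per length were found for Dnmt3b (10.03 ± 0.386), Tet3 (9.22 ± 0.259), Dnmt3a (6.78 ± 0.128), Tet2 (4.38 ± 0.236) and Tet1 (1.79 ± 0.105). NA MPs (n = 4) had the same order, from Idh2 (116 ± 3.55) to Tet1 (1.996 ± 0.186). Neighbours in this order mostly stood clear of each other. The exceptions were Dnmt1 and Uhrf1 in WT MPs, where Uhrf1 reached 86.2 in WT MP replicate 1 and Dnmt1 was as low as 84.6 in WT MP replicate 4, and Dnmt3b and Tet3, whose WT MP values overlapped from 9.37 to 9.58. Among the genes that act on DNA itself, the maintenance pair had the highest levels per length, and Tet2 and Tet1 had the lowest. With the length of the longest transcript instead of merged exons, 7 of 9 ranks were the same in WT MPs, and Tet3 (14.1) stood above Dnmt3b (11.9).

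**Figure D1:**
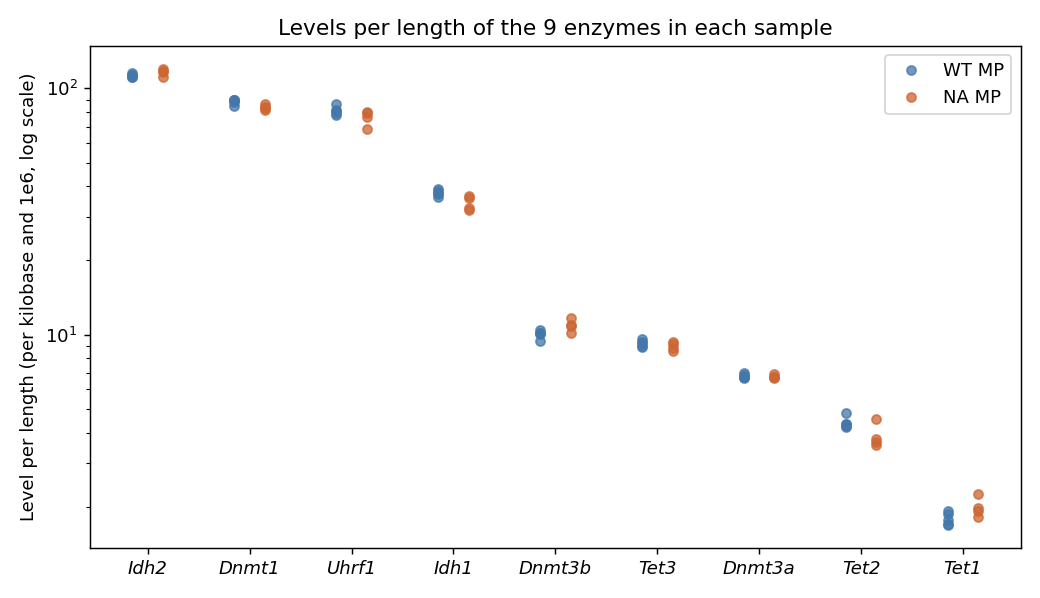
Level per length of the 9 enzymes in each of 5 WT MP (blue) and 4 NA MP (orange) samples, in scaled counts per kilobase of merged exons and column total of 1000000 on a log axis. The genes are ordered by their WT MP mean, from Idh2 at 113 to Tet1 at 1.79, and within each gene the 2 groups lie close together.

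Differences between NA MPs and WT MPs were small for all 9 enzymes. Tet2 and Idh1 were lower in NA MPs at an adjusted p under 0.05, and no enzyme was higher at that threshold. So 2 of 9 enzymes (22.2%) passed, against 34.3% of all 11987 tested genes (4107). By direction, 2 of 9 were lower against 17.3% of tested genes (2077), and 0 of 9 were higher against 16.9% (2030). At an unadjusted p under 0.05 limma placed 5 of 9 enzymes, 3 of them lower, against 42.6% of tested genes (5102). The NA MP and WT MP values did not part completely for any of the 9 enzymes, against 26.3% of tested genes (3148). With 9 genes, the count of enzymes past the threshold was near or below the background and is no result about them as a group. The largest of the 9 differences was 0.17 (Tet1, log2), and 4499 of the tested genes (37.5%) differed by more. Tet1 led Tet2 (-0.16) narrowly, and in some alternatives Tet2 came first. Among these were scaling by column totals (-0.177 for Tet2, 0.156 for Tet1) and leaving out NA MP replicate 4 (-0.24 and 0.11). The median size of a difference, in either direction, was 0.08 for the 9 enzymes and 0.12 for all tested genes (log2). Every one of the 9 intervals (95%) lay within a 1.25-fold difference in either direction.

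**Figure D2:**
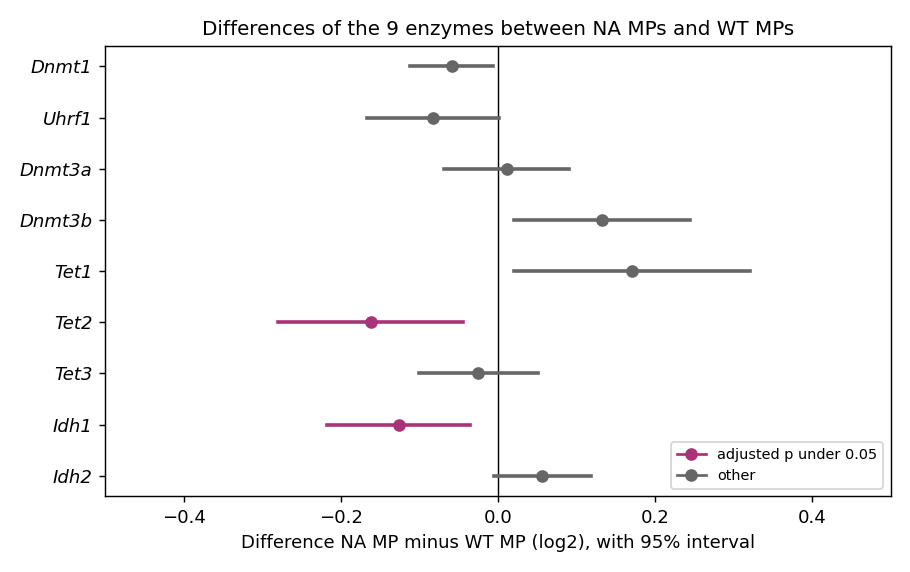
Difference between NA MPs (n = 4) and WT MPs (n = 5) for each enzyme on the log2 scale of the scaled count plus 1, with its 95% interval from limma. Tet2 (-0.16) and Idh1 (-0.13) passed an adjusted p of 0.05, and the widest interval, that of Tet1, ends at 0.32.

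The maintenance pair had the highest levels per length among the genes that act on DNA itself, below Idh2. Dnmt1 had scaled counts of 4012, 4267, 4185 and 4128 in NA MP replicates 1 to 4 and of 4391, 4311, 4404, 4144 and 4358 in WT MP replicates 1 to 5. NA MP replicates 1 and 4 lay below all WT MP samples, while NA MP replicates 2 and 3 lay above WT MP replicate 4, so the groups overlapped. The means were 4148 ± 107 (SD, n = 4) and 4321 ± 106 (SD, n = 5), a difference of -0.06 on the log2 scale (standard error 0.03, 95% interval -0.11 to -0.01, adjusted p = 0.0782 by limma). This difference was close to the threshold. It passed without NA MP replicate 2 (adjusted p = 0.0409), without WT MP replicate 4 (0.0391) and with scaling by column totals (0.0238), and the adjusted p ranged from 0.0227 to 0.237 over 19 alternatives.

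Uhrf1, which binds hemimethylated DNA and recruits Dnmt1, had 1944, 2285, 2288 and 2181 in NA MP replicates 1 to 4. In WT MP replicates 1 to 5 it had 2432, 2297, 2315, 2209 and 2242. NA MP replicate 1 was far the lowest of the 9 samples, and NA MP replicates 2 and 3 lay within the WT MP range. The means were 2174 ± 162 (SD, n = 4) and 2299 ± 85.7 (SD, n = 5), and the difference was -0.08 (log2, standard error 0.04, 95% interval -0.17 to 0.00, adjusted p = 0.123). Without NA MP replicate 1 the difference was -0.03 and the adjusted p 0.528, and without NA MP replicate 3 it was -0.11 with an adjusted p of 0.0493. The adjusted p ranged from 0.0493 to 0.528 over 19 alternatives. NA MP replicate 1 was the lowest sample for Dnmt1 as well. It also stood apart over all tested genes, at 20.3 on the second principal component (6.1% of the variance), where the other NA MP samples lay between -8.9 and -3.0.

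The de novo methyltransferases were measured at lower values. Dnmt3a had 748, 741, 750 and 774 in NA MP replicates 1 to 4 and 734, 739, 770, 745 and 750 in WT MP replicates 1 to 5. The 2 groups lay on top of each other. The difference was 0.01 (log2, 95% interval -0.07 to 0.09, adjusted p = 0.867 by limma). This corresponds to a change of 0.7%, with an interval from -4.7% to 6.4%. The sign turned with some settings, among them scaling by column totals (-0.004), which moved the median of all tested genes by -0.015. Dnmt3a shares 133 exon bases (0.799% of its exon length) with the gene Dnmt3aos on the opposite strand, and reads there could not be assigned.

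Dnmt3b had 396, 347, 375 and 371 in NA MP replicates 1 to 4 and 352, 317, 342, 345 and 340 in WT MP replicates 1 to 5. Of the NA MP samples, 3 lay above all WT MP samples, and NA MP replicate 2 lay below WT MP replicate 1. The means were 372 ± 20.2 (SD, n = 4) and 339 ± 13.03 (SD, n = 5), a difference of 0.13 (log2, standard error 0.06, 95% interval 0.02 to 0.25) that did not pass the threshold (adjusted p = 0.0612). It passed without NA MP replicate 2 (adjusted p = 0.0285), and the adjusted p ranged from 0.0285 to 0.194 over 19 alternatives.

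Among the 3 Tet enzymes, Tet2 passed the threshold and Tet1 and Tet3 did not. Tet2, which lies on the minus strand at chr3:133463679-133545139, had 400, 414, 430 and 514 in NA MP replicates 1 to 4. In WT MP replicates 1 to 5 it had 484, 484, 471, 476 and 534. NA MP replicates 1, 2 and 3 lay below all WT MP samples. NA MP replicate 4 lay above 4 of the 5 WT MP samples, so the groups overlapped through this sample. The means were 439 ± 51.4 (SD, n = 4) and 490 ± 25.3 (SD, n = 5), and Tet2 was lower in NA MPs by limma (log2 difference -0.16, standard error 0.06, 95% interval -0.28 to -0.04, adjusted p = 0.0284), with 3 of 4 samples below the WT MP mean. This corresponds to -10.6%, with an interval from -17.6% to -3.0%. The call depended on single samples. It was lost without NA MP replicate 1 (adjusted p = 0.120), 2 (0.105) or 3 (0.0737) and without WT MP replicate 5 (0.0957), and without NA MP replicate 4 the difference was -0.24 with an adjusted p of 0.000635. Over 19 alternatives the adjusted p ranged from 0.000635 to 0.120. Tet2 shares 43 exon bases (0.255%) with Gm42567 on the opposite strand.

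Tet1, the least abundant of the 9, had 204, 188, 200 and 234 in NA MP replicates 1 to 4 and 192, 197, 180, 173 and 173 in WT MP replicates 1 to 5. NA MP replicates 1, 3 and 4 lay above all WT MP samples, and NA MP replicate 2 lay between them. The means were 207 ± 19.5 (SD, n = 4) and 183 ± 10.9 (SD, n = 5). The difference of 0.17 (log2, standard error 0.07, 95% interval 0.02 to 0.32) had an adjusted p of 0.0732. It passed without NA MP replicate 2 (0.0362), with a range from 0.0362 to 0.316 over 19 alternatives. Tet3, the most abundant Tet gene per length, had scaled counts of 953 to 1050 in NA MPs and of 990 to 1056 in WT MPs. The groups overlapped, with a difference of -0.025 (log2, 95% interval -0.10 to 0.05, adjusted p = 0.652).

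The isocitrate dehydrogenases had differences of opposite sign, and only that of Idh1 passed the threshold. Idh1, on the minus strand at chr1:65158616-65186500, had 661, 603, 679 and 594 in NA MP replicates 1 to 4 and 690, 664, 705, 682 and 716 in WT MP replicates 1 to 5. NA MP replicates 1, 2 and 4 lay below all WT MP samples, and NA MP replicate 3 lay just above the lowest of them. The means were 634 ± 42.5 (SD, n = 4) and 691 ± 20.1 (SD, n = 5), and Idh1 was lower in NA MPs by limma (log2 difference -0.13, standard error 0.04, 95% interval -0.22 to -0.04, adjusted p = 0.0254), with 4 of 4 samples below the WT MP mean. This corresponds to -8.4%, with an interval from -14.0% to -2.4%. The call was lost without NA MP replicate 2 (adjusted p = 0.100) or 4 (0.130) and without WT MP replicate 3 (0.0579) or 5 (0.0684), and the adjusted p ranged from 0.00827 to 0.130 over 19 alternatives.

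Idh2 had 2076, 2008, 2046 and 1937 in NA MP replicates 1 to 4 and 1989, 1943, 1948, 1915 and 1899 in WT MP replicates 1 to 5. NA MP replicates 1, 2 and 3 lay above all WT MP samples, and NA MP replicate 4 lay among them. The difference of 0.06 (log2, standard error 0.03, 95% interval -0.01 to 0.12) did not pass the threshold (adjusted p = 0.156).

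**Figure D3:**
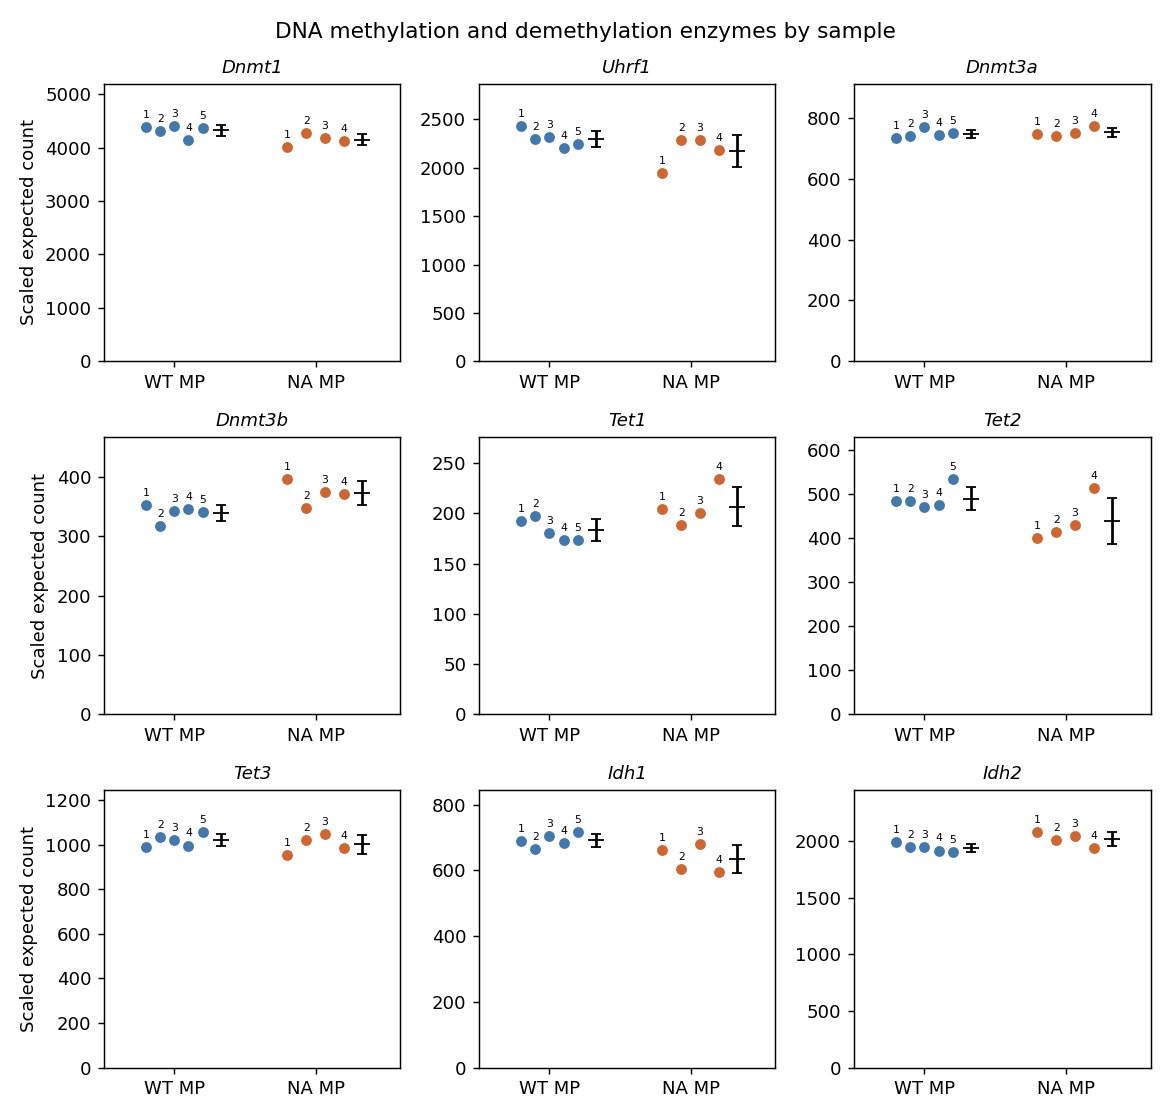
Scaled counts of each enzyme in 5 WT MP (blue) and 4 NA MP (orange) samples, numbered by replicate, with the group mean and SD beside the points and each axis starting at 0. NA MP replicate 1 is lowest for Dnmt1 and Uhrf1, and NA MP replicate 4 stands apart from the other NA MP samples for Tet2 (514 against 400 to 430).

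Shares within a family do not depend on the scaling between samples. They do depend on the gene lengths used, and are given as percentages of the family's summed level per length, as a description without a test. Idh1 made up 22.9%, 21.9%, 23.7% and 22.3% of the Idh1 and Idh2 sum in NA MP replicates 1 to 4. In WT MP replicates 1 to 5 it made up 24.5%, 24.2%, 25.3%, 25.0% and 26.0%. All 4 NA MP samples lay below all 5 WT MP samples, although neither gene alone parted the groups, and the means were 22.7% ± 0.782 (SD, n = 4) and 25.0% ± 0.721 (SD, n = 5). The balance thus lay further towards Idh2 in NA MPs by a small margin. Single genes parted the groups in 26.3% of tested genes, and how often shares of other gene pairs do so was not examined. The lack of overlap is therefore no sign that this pair is unusual.

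Within the Tet family, Tet3 held 60.4% ± 2.80 in NA MPs (SD, n = 4) and 59.9% ± 0.639 in WT MPs (SD, n = 5). Tet2 held 25.2%, 25.0% and 25.1% in NA MP replicates 1 to 3 but 29.1% in NA MP replicate 4, against 27.7% to 29.8% in WT MPs. The first 3 NA MP samples lay close together below all WT MP samples, and the 4th lay within the WT MP range. Tet1 held 12.4% to 14.5% in NA MPs and 10.6% to 12.4% in WT MPs, so that the groups met at 12.4%. Of the methyltransferases, Dnmt1 held 82.6% ± 0.870 in NA MPs (SD, n = 4) and 84.0% ± 0.446 in WT MPs (SD, n = 5), and Dnmt3b held 10.7% ± 0.740 and 9.5% ± 0.382. For both the groups overlapped, since NA MP replicate 2 (83.7% Dnmt1 and 9.8% Dnmt3b) lay among the WT MP samples. The ratio of Dnmt3b to Dnmt3a per length was 1.53 to 1.73 in NA MPs and 1.40 to 1.56 in WT MPs. With the longest transcript as length it was 1.05 to 1.19 in NA MPs and 0.96 to 1.07 in WT MPs, so the margin of Dnmt3b over Dnmt3a was smaller with that length. It was 0.96 in WT MP replicate 2, about 1 in WT MP replicate 3 and above 1 in the other 7 samples.

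**Figure D4:**
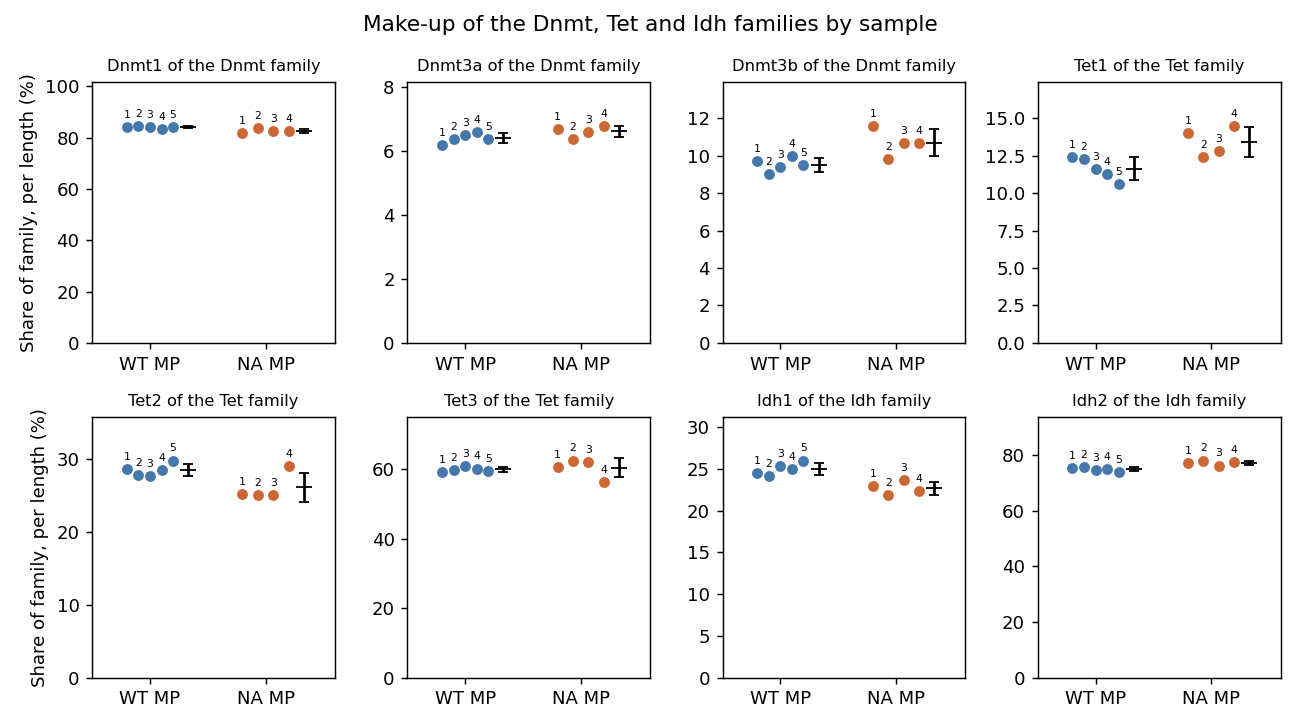
Share of each gene in its family's summed level per length, in percent, for 5 WT MP (blue) and 4 NA MP (orange) samples with group mean and SD. The Idh1 share lies at 21.9% to 23.7% in NA MPs and at 24.2% to 26.0% in WT MPs, without overlap.

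The spread between samples was compared with that of counting, without a test between the groups. In WT MPs the coefficients of variation ran from 1.78% (Idh2) to 5.93% (Tet1), and those expected from counting reads alone from 1.504% (Dnmt1) to 7.32% (Tet1). In WT MPs, Dnmt3a (1.87% against 3.62%), Dnmt3b, Tet1, Tet3, Idh1 and Idh2 varied less than counting alone would give, and in NA MPs Dnmt3a did (1.88% against 3.72%). In NA MPs the coefficients ran from 1.88% (Dnmt3a) to 11.7% (Tet2). For Tet2 (4.91% from counting) NA MP replicate 4 lay above the other 3, and for Uhrf1 (7.44% against 2.19%) NA MP replicate 1 lay below them. Dnmt1 varied about equally in NA MPs (2.58%) and WT MPs (2.45%). Over all tested genes, chi-square divided by its degrees of freedom was 1.63 to 2.84 over 6 pairs of NA MP samples and 1.2 to 1.71 over 10 pairs of WT MP samples.

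For the enzymes past the threshold, the genes with the most similar pattern over the 9 samples were named, by the root mean square difference of log2 values set relative to the WT MP mean, among 9226 tested genes with a mean log2 value of at least 3 at a column total of 1000000. The nearest to Tet2 were Ino80d (0.0509) and Med1 (0.0521). Their own differences were -0.14 (adjusted p = 0.0106) and -0.15 (adjusted p = 0.0175). The nearest to Idh1 were Mrfap1 (0.0317) and Mark3 (0.0374), with differences of -0.13 (adjusted p = 0.00538) and -0.09 (adjusted p = 0.165). The choice by pattern over the same samples draws these differences towards those of the enzymes, so they give the calls of Tet2 and Idh1 no support.

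Other genes of the pathway were counted by list. Over all tested genes the median difference was -0.01 (log2), with 17.3% lower and 16.9% higher in NA MPs, and no list was tested against another. Of 8 tested relatives and partners of the methyltransferases, 5 were lower in NA MPs and 0 were higher (median -0.09, log2), and Dnmt3l, the inactive cofactor of the de novo enzymes, was too low to test. The largest decreases were in Trdmt1, an RNA methyltransferase (-0.29, adjusted p = 0.0260), and Uhrf2 (-0.18, adjusted p = 0.00388), and Pcna, the replication clamp, had the highest level per length. This count was fragile, as 2 were lower without NA MP replicate 2, NA MP replicate 3 or WT MP replicate 2, and at most 4 without any other sample. Trdmt1 lost its call without NA MP replicate 2 (adjusted p = 0.117), NA MP replicate 3 (0.0767) or WT MP replicate 4 (0.0911). Of the 9 methyl-CpG readers, Mbd6 was higher (0.13, adjusted p = 0.00981) and Mbd2 lower (-0.16, adjusted p = 0.00302). Mbd6 lost its call without NA MP replicate 2 (0.0639) or 4 (0.0508), and Mbd3 had the highest level per length.

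On the demethylation side, 3 of 5 tested genes listed as Tet partners were higher in NA MPs and 0 lower (median 0.20, log2). The largest increases were in Hmces, a sensor of abasic sites (0.52, adjusted p = 8.895e-07), and Cxxc5 (0.37, adjusted p = 3.216e-05). Ogt, the O-GlcNAc transferase that binds Tet proteins, had the highest level per length and did not pass the threshold (0.02, adjusted p = 0.767). Cxxc4 and Sall4 were at 0 in all 9 samples. Of 13 tested genes of base excision repair and active demethylation, 2 were higher and 2 lower (median -0.02, log2). Neil1 (0.55, adjusted p = 0.00776) and Gadd45a (0.42, adjusted p = 0.000451) were higher. Lig3 (-0.15, adjusted p = 0.0252) and Tdg, the glycosylase that removes oxidised methylcytosine (-0.13, adjusted p = 0.0206), were lower. Lig3 lost its call without NA MP replicate 3 (0.132), WT MP replicate 2 (0.0605) or WT MP replicate 5 (0.0775), and Tdg without NA MP replicate 2 (0.0622) or WT MP replicate 1 (0.0672). Parp1 had the highest level per length of this list.

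Genes that supply substrates were counted in the same way, and 17.3% of all tested genes were lower. Of 13 tested genes of methyl donor supply, 7 were lower and 0 higher (median -0.13, log2). The largest decreases were in Ahcyl2 (-0.54, adjusted p = 1.330e-07) and Mthfd1, an enzyme of folate metabolism (-0.52, adjusted p = 2.367e-15). Mat2a, which makes S-adenosylmethionine, had the highest level per length of this list. Of 16 genes of 2-oxoglutarate metabolism, 9 were lower and 0 higher (median -0.11, log2), with the largest decreases in Idh3a, a subunit of the NAD-dependent isocitrate dehydrogenase (-0.25, adjusted p = 1.972e-06), and Got1 (-0.22, adjusted p = 0.0287). Got1 lost its call without NA MP replicate 1 (0.0521) or 4 (0.110) and without WT MP replicate 1 (0.0590) or 4 (0.0847). Sdhd had the highest level per length there.

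**Figure D5:**
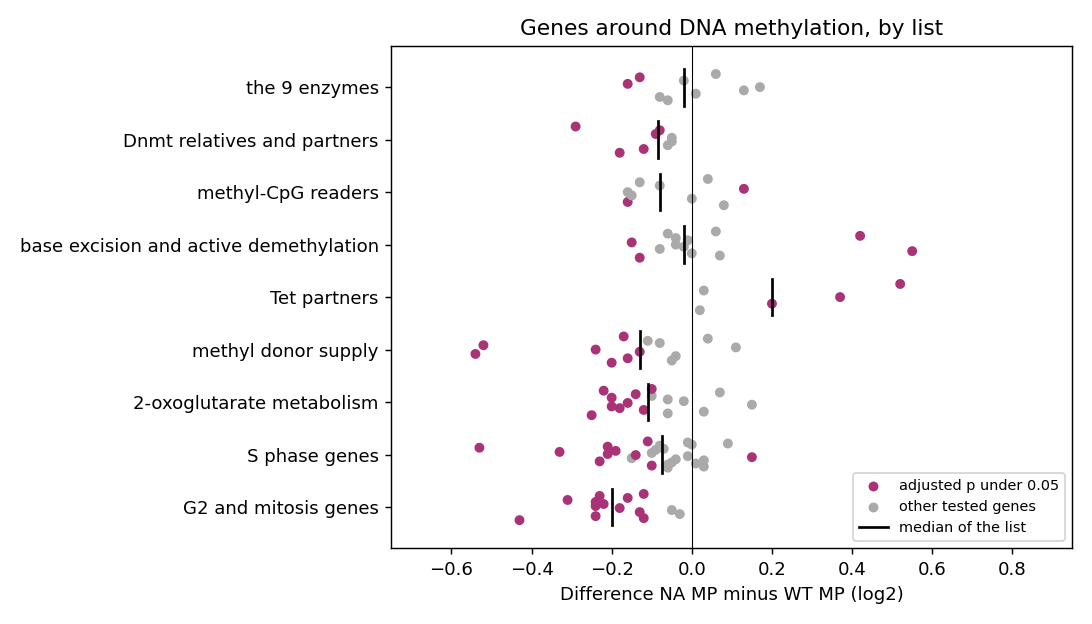
Difference between NA MPs and WT MPs (log2) of each tested gene in the 9 enzymes and 8 lists around them, with genes past an adjusted p of 0.05 in purple, other tested genes in grey and the list median as a black bar. The 9 enzymes lie between -0.16 and 0.17, the Tet partners lie at or above 0, and the G2 and mitosis genes lie at or below -0.03.

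Dnmt1 and Uhrf1 are used during DNA replication, so cell cycle genes are given beside them. Of all tested genes, 17.3% were lower and 16.9% higher in NA MPs. Of 26 S phase genes, 9 were lower in NA MPs and 1, Gins2 (0.15, adjusted p = 0.00145), was higher (median -0.07, log2). The largest decreases were in Ccne1 (-0.53, adjusted p = 1.635e-06) and Rrm1 (-0.33, adjusted p = 5.268e-13), and Mcm6 had the highest level per length. Of 14 genes of G2 and mitosis, 12 were lower and 0 higher (median -0.20, log2), led by Mki67 (-0.43, adjusted p = 1.168e-16) and Cenpf (-0.31, adjusted p = 7.254e-06). The differences of Dnmt1 (-0.06) and Uhrf1 (-0.08) lay near the S phase median. The part of the cell cycle genes in these values was not tested.

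Some lists of markers of other cells, those of pro-B and pre-B, erythroid and mast cells, moved with the groups far more than the 9 enzymes did. Other lists did not as a whole. The monocyte median was 0.07 (log2), and the mean megakaryocyte sums were 1489 in NA MPs and 1491 in WT MPs. Beside the counts of markers given below, 17.3% of all tested genes were lower and 16.9% higher in NA MPs. All 13 tested pro-B and pre-B cell markers were higher in NA MPs, among them Rag1 (3.66, adjusted p = 2.432e-05), and their summed scaled counts were 1533, 2708, 2712 and 2046 in NA MP replicates 1 to 4 and 392 to 428 in WT MPs. Cd79b had the highest level per length of this list, and none of its 13 markers was at 0 in any sample. Of the 13, 7 had a scaled count of at least 10 in every sample, and all 7 were higher. The other 6 were under 10 in at least 1 sample. Of these, 3 were under 10 in all WT MP samples and so passed the filter through NA MPs alone, which favors a gene that is higher there. The lineage stain of the sort includes B220, which is meant to remove B lineage cells. Of the T cell markers Lck was tested and higher (2.16, adjusted p = 2.135e-11), although it was under 10 in WT MP replicate 2, and Cd3e and Cd3g were at 0 in all 9 samples.

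Of 14 tested erythroid markers, 12 were lower in NA MPs (median -0.88, log2), led by Sptb (-1.43, adjusted p = 0.00145) and Ermap (-1.37, adjusted p = 2.937e-05). Their summed scaled counts were 6821, 5568, 6034 and 7170 in NA MP replicates 1 to 4 and 10428 to 11639 in WT MPs, and Car1 had the highest level per length. Of 7 mast cell and basophil markers, 5 were higher and 1, Hdc (-0.24, adjusted p = 4.288e-07), was lower, led by Gzmb (2.29, adjusted p = 2.693e-23) and Fcer1a (1.38, adjusted p = 5.922e-15). Their sums lay at 3755 to 4312 in NA MPs and 2666 to 2924 in WT MPs, with Cpa3 the most abundant per length.

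Of 7 tested late neutrophil markers, 3 were higher and 1, Mmp8 (-1.09, adjusted p = 0.00142), was lower, with values under 10 in some NA MP samples. Camp (0.90, adjusted p = 0.0136) and Ngp (0.90, adjusted p = 0.0188) led, the sums lay at 3368 to 5246 in NA MPs and 2808 to 3338 in WT MPs, and S100a9 was the most abundant per length. Only 1 of these markers was higher without NA MP replicate 4, and Ngp then had an adjusted p of 0.0523. Of 6 monocyte markers, Ms4a6c (0.39, adjusted p = 4.822e-10), Ly6c2 (0.23, adjusted p = 0.00867) and 1 more were higher. Ccr2 (-0.59, adjusted p = 2.924e-13) and Cx3cr1 (-0.23, adjusted p = 0.0244) were lower, although Cx3cr1 lost its call without NA MP replicate 1 (0.0569), NA MP replicate 2 (0.0525) or WT MP replicate 3 (0.0690). The monocyte sums lay at 12042 to 14401 in NA MPs and 11741 to 12663 in WT MPs, with Ly6c2 the most abundant per length.

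Of 6 tested megakaryocyte markers, 1, Itga2b (0.19, adjusted p = 0.00316), was higher and 2 were lower, among them Vwf (-0.51, adjusted p = 2.580e-07). Their sums lay at 1404 to 1629 in NA MPs and 1403 to 1567 in WT MPs, with Pf4 the most abundant per length. Of 10 myeloid progenitor markers, 3 were higher, led by Prtn3 (0.19, adjusted p = 0.00415) and Ctsg (0.17, adjusted p = 1.697e-08), and Fcgr3 was lower (-0.57, adjusted p = 4.125e-16). Without NA MP replicate 1, 6 of the 10 were higher. The part of these cell types in the values of the 9 enzymes was not tested.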

How the data were processed

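The authors sorted the cells, sequenced polyA RNA and estimated expected counts with RSEM (genome build mm10, in the submitters' processing notes; versions not given in the sources used here). The deposited values are a scaled signal: between 97.6% and 98.0% of values under 50 in a column lay within 0.02 of a whole multiple of 1 step per column. A count test had been planned on raw counts, but since the values were scaled, limma 3.58.1 in R 4.3.3 was used on log2(value + 1) with trended, robust variances, and differences of low genes are understated. Genes with a value of at least 10 in at least 4 samples were tested, with Benjamini-Hochberg adjustment over all 11987 genes and a threshold of 0.05. Intervals are 95%. The test was checked on simulated data.

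Symbols matched 32916 of 37980 genes. Lengths, positions and exon overlaps came from GENCODE annotation of GRCm38, and promoter windows from RefSeq. The members and lists were chosen with earlier results of these data known. Named are the 9 enzymes, in each other list the called genes with the 2 largest changes in each direction and the gene with the highest level per length, and the 2 genes nearest in pattern to each enzyme past the threshold, outside the 9, not predicted genes, with a mean log2 value of at least 3 at a column total of 1000000. A few genes that meet it are not reported here. Oga was listed as Mgea5. Alternatives were other scalings, filters, thresholds and variance settings, the replicate number as a block, and leaving out each sample. Pseudocounts of 0.5 and 5, precision weights from recovered reads, transcript length for the family shares, and all alternatives for list genes were added after seeing the data.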

Additional observations from a re-analysis of the deposited data

Results flagged for a closer look

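Of 72 sets of values within a group, 4 had a sample far from the others, where chance gives about 3.6. Tet2 was 534 in WT MP replicate 5, against 471 to 484 in the other WT MP samples. The share of Tet2 in the Tet family was 29.1% in NA MP replicate 4, against 25.0% to 25.2% in the other NA MP samples. The summed scaled counts of the Tet partner genes were 4851 in WT MP replicate 5, against 4388 to 4467 in the other WT MP samples. Ly6a was 17 in NA MP replicate 2, against 22 to 23 in the other NA MP samples. The causes were not tested.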

How the results depend on the processing

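The count of genes past the threshold kept within 1.5 times of 4107 in all alternatives, with 2857 at an adjusted p of 0.01 as the lowest, and between 3625 and 3937 when each sample was left out in turn. The count of enzymes past the threshold moved more. It was 2 of 9 in the analysis as reported, 0 at an adjusted p of 0.01 (5 at an unadjusted p under 0.05 by limma), and between 0 and 3 when each sample was left out in turn, with 0 without WT MP replicate 5 (3 at an unadjusted p under 0.05). With the replicate number as a block, limma placed 0 enzymes (4 at an unadjusted p under 0.05) and 3693 genes past the threshold, but this fit also takes WT MP replicate 5, which has no partner, out of the comparison, and the fit without that sample placed 0 enzymes and 3689 genes. The correlations of same-numbered samples were 0.01, 0.00, -0.02 and 0.06. Samples with different numbers were not compared in this way, so these values do not settle whether the numbers pair the samples. For the 9 enzymes, 19 alternatives each were run, and 8 kept their direction in all of them. Dnmt3a (0.011 as reported) turned, to -0.004 with scaling by column totals and to -0.002 with precision weights. Both settings moved the median of all tested genes by -0.015, so these turns say nothing about Dnmt3a itself. It also turned to -0.002 without NA MP replicate 4 (range -0.002 to 0.021 when each sample was left out), and the cause was not tested. With the longest transcript, 7 of 9 levels per length kept their rank, and the WT MP family shares changed because the lengths differ, from 84.0% to 82.5% for Dnmt1, 6.4% to 8.7% for Dnmt3a, 11.6% to 8.0% for Tet1, 28.5% to 33.4% for Tet2 and 25.0% to 21.7% for Idh1. Of 40 called list genes within the naming rule, 33 stayed past 0.05 in all 18 alternatives at that threshold. DESeq2 and unrounded counts were not run, as the values are not counts. Depth limits Tet1 most, with 170 to 283 reads in a sample.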
